A study of Mus musculus with 6 samples.

Results

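The genes described here encode the proteins of the cytosolic ribosome, and they were measured in ovarian granulosa cells of Il22r-/- and Il22r+/+ mice. They were chosen by symbol: protein-coding genes named Rpl or Rps with a number and at most a short paralog suffix, together with Rplp0, Rplp1, Rplp2 and Rpsa. The rule found 82 of the 55860 genes in the deposited table, 51 of the large subunit and 31 of the small subunit. Enough reads for a test were present for 79 of them, 48 large and 31 small. Rpl3l had 5, 1 and 0 reads in Il22r-/- libraries 1 to 3, against 0, 1 and 0 in Il22r+/+ libraries 1 to 3. Rpl39l had 2, 0 and 0 reads in Il22r-/- libraries and 0 in each Il22r+/+ library, and Rpl10l had 0 in every library.

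There were 3 libraries from Il22r-/- cells and 3 from Il22r+/+ cells, the genotype being the only difference that the labels state. By its title the study concerns interleukin-22 and STAT3 signalling in the ovulation disorder of polycystic ovary syndrome. Granulosa cells of both genotypes were isolated on a density gradient, kept for 12 h in DMEM-F12 with 10% fetal bovine serum and penicillin-streptomycin, and used for total RNA. The labels give no age, strain, deleted exon, Cre driver or pooling, and do not say whether the libraries came from separate animals or cultures, so p-values measure only the spread between these libraries, which may be technical. In cells in bulk, fewer cells of a type and less RNA per cell cannot be told apart.

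The cytosolic ribosome joins a small subunit, which decodes mRNA, to a large subunit, which forms the peptide bond. Its proteins are made in nearly equal numbers, and their short mRNAs are among the most abundant in dividing or secreting cells. Most of these mRNAs begin with a run of C and T letters, the terminal oligopyrimidine tract, through which mTORC1 and the RNA-binding protein LARP1 adjust their translation and stability. Ribosome supply is general machinery in granulosa cells, which divide and make hormones as the follicle grows.

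The start regions of 5 genes are printed because the results return to these genes: Rps6, a target of S6 kinase; Rpl38, whose rise differed between the Il22r-/- libraries, and Rpl12, whose rise was nearly the same in each; and the paralogs Rps27 and Rps27l, of which the test called one and not the other. The windows were taken from RefSeq gene starts on GRCm38.p6 and run from 120 bases before the start to 30 bases from it onwards, 5′ to 3′ on the gene's strand. They lie at chr4:86857338-86857487 on the minus strand for Rps6, chr11:114668460-114668609 on the plus strand for Rpl38, chr2:32961592-32961741 on the plus strand for Rpl12, chr3:90213619-90213768 on the minus strand for Rps27 and chr9:66945966-66946115 on the plus strand for Rps27l. Capitals mark the longest unbroken run of C and T near the start, or the first of them where, as in Rps27l, 2 runs are equally long.
Rps6: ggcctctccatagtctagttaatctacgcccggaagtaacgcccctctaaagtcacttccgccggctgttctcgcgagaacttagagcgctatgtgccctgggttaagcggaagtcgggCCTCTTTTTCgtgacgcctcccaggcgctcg
Rpl38: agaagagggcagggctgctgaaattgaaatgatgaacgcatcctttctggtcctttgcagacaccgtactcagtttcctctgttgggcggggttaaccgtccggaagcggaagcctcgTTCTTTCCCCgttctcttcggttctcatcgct
Rpl12: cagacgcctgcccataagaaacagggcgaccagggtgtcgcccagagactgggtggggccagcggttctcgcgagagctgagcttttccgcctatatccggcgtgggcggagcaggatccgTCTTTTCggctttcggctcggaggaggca
Rps27: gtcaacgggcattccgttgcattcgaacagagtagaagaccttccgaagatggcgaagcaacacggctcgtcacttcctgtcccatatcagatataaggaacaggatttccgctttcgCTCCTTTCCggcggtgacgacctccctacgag
Rps27l: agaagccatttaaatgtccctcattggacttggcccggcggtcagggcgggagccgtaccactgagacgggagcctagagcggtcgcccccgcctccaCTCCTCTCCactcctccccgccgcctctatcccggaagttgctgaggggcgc

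A RefSeq window of 300 bases (250 before the start and 50 from it) was at hand for 62 of the 82 genes. A run of at least 8 C or T letters on the gene's strand within 30 bases of the start was present in 35 of these 62, or 56.5%, against 25.8% of 27025 genes with a window. On the other strand the same search found 8 of the 62, or 12.9%, against 28.7% of all genes. The motif CCGGAAG, on either strand of the whole window, was in 40.3% of the ribosomal protein genes and 9.93% of all genes. CTCTTTC, which can lie inside a C and T run, was in 27.4% and 9.28%, AAGATGG in 16.1% and 7.28%, and TATAAA in 11.3% and 15.7%. These matches describe letters only, and a window without a match says nothing about any factor.

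Counted reads totalled 14.9 to 18.1 M per Il22r-/- library and 17.4 to 17.7 M per Il22r+/+ library (M, mega-reads). The first principal component of the most variable genes, with 89.3% of their variance, separated the genotypes, and the second, with 4.21%, set Il22r-/- library 3 apart. Library 3 also had the fewest reads and a share of mitochondrially encoded transcripts of 2.72%, against 2.14% and 2.08% in the other Il22r-/- libraries and a mean of 2.71 ± 0.0948% in Il22r+/+ libraries (SD, n = 3). Of all tested genes, 23.6% were called higher in Il22r-/- cells and 22.1% lower. Among granulosa markers, 6 of 13 tested were higher and 2 lower in Il22r-/- cells, with summed levels of 8824 to 9789 CPM against 6480 to 7317 CPM in Il22r+/+ cells. The 6 higher were Fshr (log2 fold change 4.50), Nr5a2 (1.73), Amhr2 (1.47), Cyp11a1 (1.33), Hsd3b1 (1.27) and Inhba (0.70), and the 2 lower were Nr5a1 (-0.53) and Foxl2 (-0.47). Cyp19a1, the aromatase gene of estrogen-producing granulosa cells, had too few reads for a test, with 0, 0 and 1 reads in Il22r-/- libraries against 8, 3 and 25 in Il22r+/+ libraries. Macrophage markers were higher for 9 of 9 tested, at 28.4 to 87.2 CPM in all against 8.83 to 11.6 CPM. Mesothelial and surface epithelial markers were lower for 4 of 7, at 12.0 to 28.1 CPM against 240.1 to 243.0 CPM, and stromal and thecal markers were higher for 1 and lower for 2 of 6, at 241 to 364 CPM against 530 to 681 CPM. The stromal and thecal list was split, so its sum does not describe each marker. Col1a2 was higher (log2 fold change 5.24), Dcn (-4.50) and Star (-1.19) were lower, and Col1a1, Pdgfra and Lum were not called. Smooth muscle markers were higher for 4 and lower for 1 of 6 (357 to 577 against 267 to 322 CPM), endothelial markers higher for 2 and lower for 1 of 3 (4.20 to 7.15 against 3.68 to 5.39 CPM), 2 tested oocyte markers were not called, and Hba-a1, Hba-a2, Hbb-bs and Hbb-bt of red cells had no read in any library. The summed levels of the granulosa, macrophage, mesothelial, stromal and smooth muscle lists did not overlap between the genotypes, those of the endothelial list did, and the part of these lists in the results that follow was not tested. These sums, too, do not describe each marker. Acta2 made up most of the smooth muscle sum, where Tagln was lower (-0.96) and Cnn1 was not called. Inha, an abundant granulosa marker, was not called (-0.30). Krt7, Krt19 and Muc16 of the mesothelial list were not called either, at 0.98, 0.67 and 0.0057. Il22ra1 had 5, 2 and 0 reads in Il22r-/- libraries against 1, 5 and 4 in Il22r+/+ libraries, too few to check the labels.

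Ribosomal protein mRNAs took a larger share of the reads in Il22r-/- cells. Together the 82 genes held 3.79%, 3.85% and 2.81% of the counted reads in Il22r-/- libraries 1 to 3, against 1.86%, 1.85% and 1.96% in Il22r+/+ libraries 1 to 3. Every Il22r-/- library lay above every Il22r+/+ library, and Il22r-/- library 3 lay nearest to them. The means were 3.48 ± 0.584% and 1.89 ± 0.0630% (SD, n = 3 each), a ratio of 1.84, or 2.02 without Il22r-/- library 3. Large-subunit genes held 2.05 ± 0.342% of the reads in Il22r-/- cells and 1.13 ± 0.0359% in Il22r+/+ cells, a ratio of 1.81. Small-subunit genes held 1.44 ± 0.242% and 0.762 ± 0.0272%, a ratio of 1.88. Both subunits moved nearly alike: the large subunit had 1.42, 1.43 and 1.43 times the reads of the small subunit in Il22r-/- libraries, against 1.48, 1.49 and 1.47 times in Il22r+/+ libraries. With 3 libraries in each group, an exact permutation test cannot go below p = 0.1, and none is given for these sums.

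**Figure D1:**
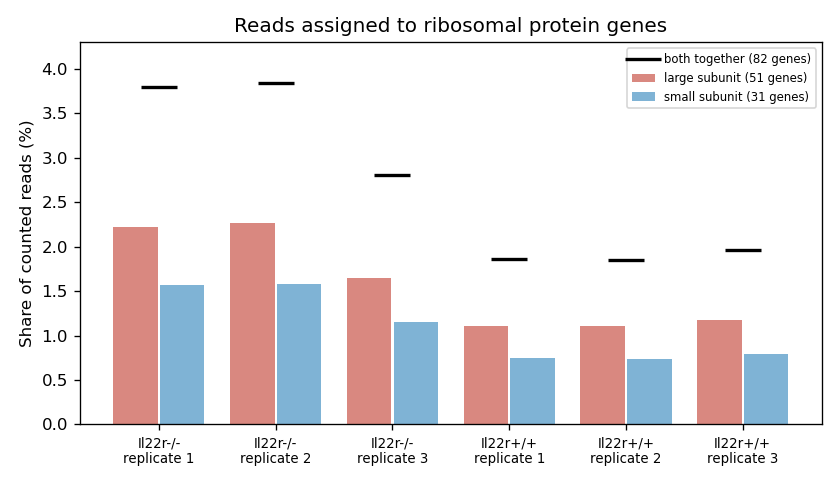
Share of counted reads (%) assigned to ribosomal protein genes in each library, with side-by-side bars for large-subunit and small-subunit genes and a black mark at their sum. The Il22r-/- libraries reach 3.79%, 3.85% and 2.81%, and the Il22r+/+ libraries lie between 1.85% and 1.96%.

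Gene by gene, 72 of the 79 tested ribosomal protein genes were higher in Il22r-/- cells and 0 were lower, by the edgeR quasi-likelihood test with Benjamini-Hochberg adjustment over 15227 genes, called at an adjusted p under 0.05. Over all tested genes, 23.6% were called higher and 22.1% lower. The edgeR test also had 0 lower at an unadjusted p under 0.05. At an adjusted p under 0.05 the DESeq2 Wald test called 0 lower and limma-voom 1, Rpl24. At mean levels of 100 CPM or more (counts per mega-read after TMM scaling), 69 of 73 ribosomal protein genes were higher, against 21.2% of all genes at that level, of which 36.3% were lower. The median log2 fold change of the 79 genes was 0.79 (quartiles 0.61 and 0.94), or 1.73-fold, beside 0.03 for all tested genes. It was 0.79 for the large subunit, with 44 of 48 higher, and 0.78 for the small subunit, with 28 of 31 higher. A change of at least 2-fold was called for 18, where 8.03% of all tested genes had one. In 67 genes each Il22r-/- library was above each Il22r+/+ library, a pattern seen in 28.7% of all tested genes, and in 12 the groups overlapped.

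**Figure D2:**
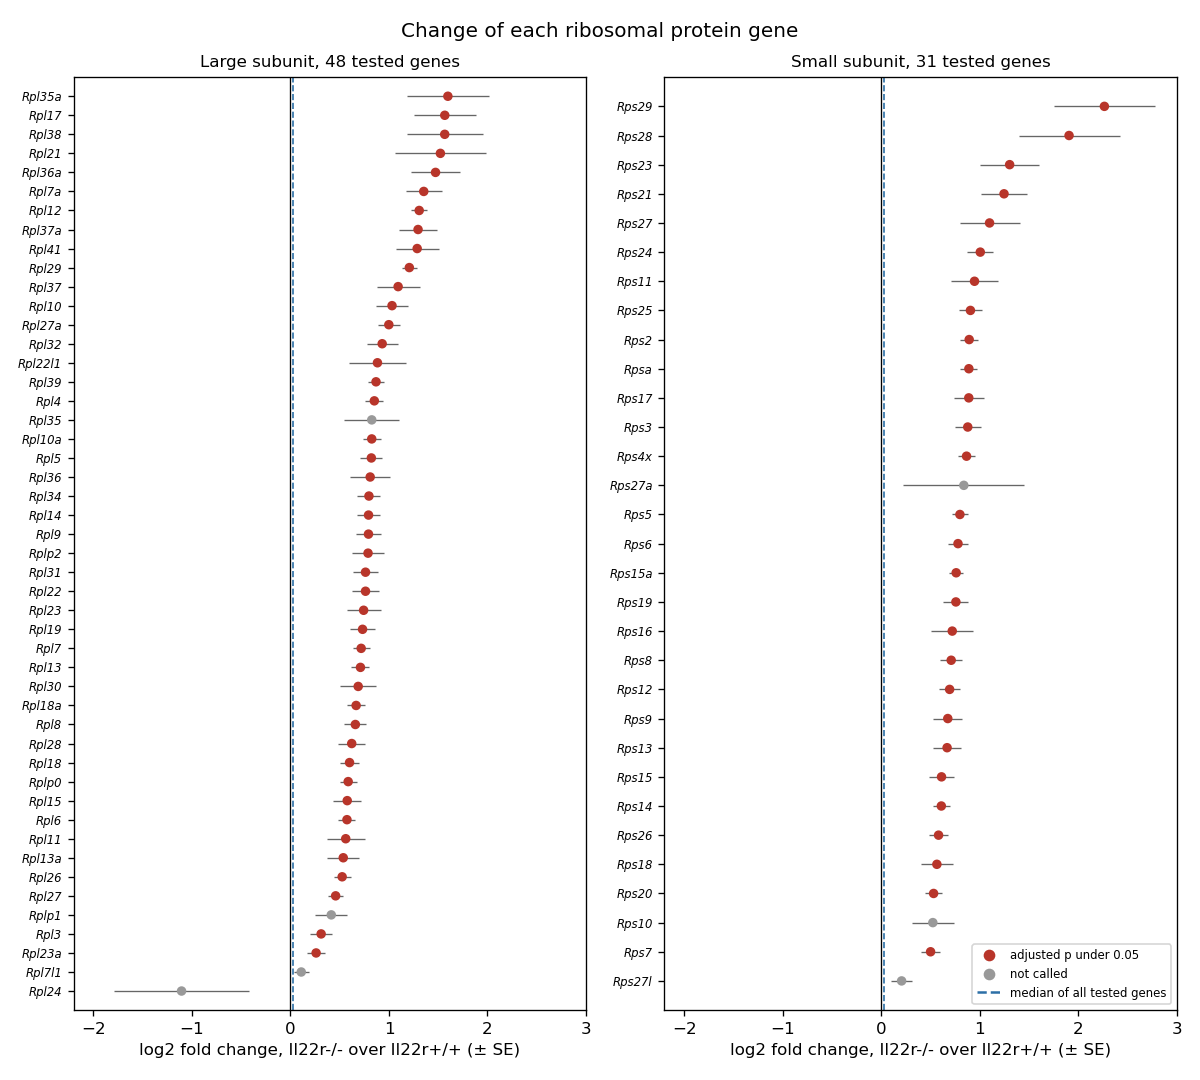
Log2 fold change (Il22r-/- over Il22r+/+) with its standard error for each tested ribosomal protein gene, 48 of the large subunit and 31 of the small subunit, with colour showing the call at an adjusted p under 0.05. All but Rpl24 lie above 0, and Rps29 and Rps28 have the highest values, 2.27 and 1.91.

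The rise was not even over the Il22r-/- libraries. Relative to the Il22r+/+ mean, the median log2 difference of the 79 genes was 0.88 in Il22r-/- library 1, 0.94 in library 2 and 0.47 in library 3. Library 3 was below both other Il22r-/- libraries in 72 genes, while libraries 1 and 2 were within 10% of each other in 64. Libraries 1 and 2 were above all Il22r+/+ libraries in 78 genes, and library 3 in 68. How many of all tested genes showed these library patterns was not counted. The median log2 differences of all tested genes were 0.035, 0.018 and -0.0064 in Il22r-/- libraries 1 to 3. Without library 3, 76 genes were called higher and 1 lower, with a median log2 fold change of 0.89, and the share of all tested genes called higher was 26.3%. Without Il22r-/- library 1 or 2, 56 and 59 genes were called higher, where 19.8% and 18.7% of all tested genes were. Without Il22r+/+ library 1, 2 or 3 the counts were 64, 60 and 66, where 17.5%, 18.8% and 18.3% of all tested genes were higher. Thus the count over all genes moved in the same direction as that of the ribosomal protein genes when Il22r-/- libraries were left out.

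**Figure D3:**
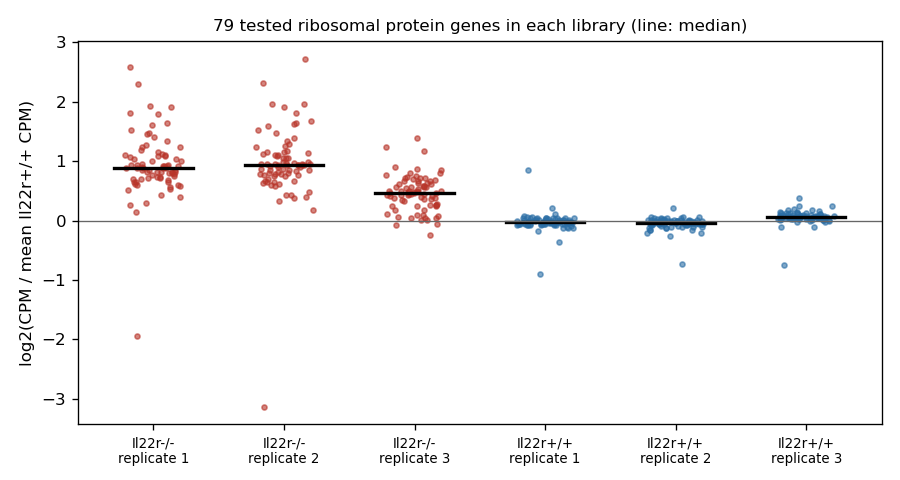
Log2 ratio of each gene's CPM to its mean in Il22r+/+ cells, 1 point per tested ribosomal protein gene and library, with a line at the median. The medians of Il22r-/- libraries 1 to 3 are 0.88, 0.94 and 0.47, and the Il22r+/+ libraries lie around 0.

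In the small subunit the largest rises were in Rps29 and Rps28, which encode small proteins. Rps29 (ENSMUSG00000034892, chr12:69157722-69159186 on mm10, minus strand) had 322.5, 356.6 and 98.3 CPM in Il22r-/- libraries against 52.9, 48.1 and 60.8 CPM in Il22r+/+ libraries. The groups did not overlap, but Il22r-/- library 3 stood much closer to Il22r+/+ cells than to the other Il22r-/- libraries. The log2 fold change was 2.27 ± 0.51 (SE), or 4.81-fold, with an edgeR adjusted p of 0.0163. That call was lost without Il22r-/- library 1 (adjusted p = 0.089) or library 2 (adjusted p = 0.0663), and without library 3 the log2 fold change was 2.64 (adjusted p = 4.45e-09). With no filter on low counts the calls of Rps29, Rps28, Rps23 and Rps27, among the largest rises of this subunit, were lost too, at adjusted p of 0.065, 0.104, 0.0797 and 0.123. Rps28 (ENSMUSG00000067288, chr17:33819027-33824562, minus strand) had 273, 276 and 76.8 CPM against 58.7, 48.1 and 60.3 CPM, with the same order of libraries. Its log2 fold change was 1.91 ± 0.51 (edgeR adjusted p = 0.0298), and the call was lost without Il22r-/- library 1 or 2 (adjusted p = 0.137 and 0.112) or Il22r+/+ library 2 (0.0723). Rps23, a protein of the decoding centre, had 518, 562 and 249 CPM against 184, 178 and 176 CPM, a log2 fold change of 1.30 ± 0.30 (edgeR adjusted p = 0.013, and 0.0839 without Il22r-/- library 1). Rps21 rose by 1.25 ± 0.24 on the log2 scale (edgeR adjusted p = 0.00536), from the same unequal libraries: 232, 232 and 128 CPM against 80.1, 76.0 and 93.3 CPM.

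Rpsa rose by nearly the same amount in every Il22r-/- library, and the other small-subunit genes named here differed more between them. Rpsa, at the mRNA exit side and also known as the laminin receptor, had 1000, 1015 and 1012 CPM in Il22r-/- libraries against 497, 561 and 575 CPM in Il22r+/+ libraries. Its log2 fold change was 0.89 ± 0.09 (edgeR adjusted p = 2.11e-05), with all 3 Il22r-/- libraries close together and far above the other group. Rps6, whose protein is phosphorylated by S6 kinase below mTORC1, had 648, 704 and 553 CPM against 354, 364 and 392 CPM, a log2 fold change of 0.78 ± 0.10 (edgeR adjusted p = 0.000139). Rps19, the gene most often mutated in human Diamond-Blackfan anaemia, had 508, 546 and 380 CPM against 288, 262 and 298 CPM, a log2 fold change of 0.76 ± 0.13 (edgeR adjusted p = 0.000809). The smallest called changes of this subunit were those of Rps7 (0.50 ± 0.09), Rps20 (0.53 ± 0.08) and Rps18 (0.57 ± 0.16), with edgeR adjusted p of 0.00153, 0.00052 and 0.0207. Rps7 had its highest value in library 3, with 433, 440 and 519 CPM in Il22r-/- libraries against 315, 317 and 351 CPM in Il22r+/+ libraries. Rps18 lost its call without Il22r-/- library 1 (adjusted p = 0.0785) or without Il22r+/+ library 1 or 2 (0.0702 and 0.0755).

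In the large subunit the 5 highest values were those of Rpl35a, Rpl17, Rpl38, Rpl21 and Rpl36a. With no filter on low counts the first 4 of these were not called, at adjusted p of 0.0937, 0.0532, 0.0834 and 0.139. Rpl38 (ENSMUSG00000057322, chr11:114668524-114672331, plus strand), needed in mouse embryos for translation of a subset of Hox mRNAs, had 226, 253 and 96.2 CPM in Il22r-/- libraries against 64.0, 55.9 and 74.5 CPM in Il22r+/+ libraries. Its log2 fold change was 1.57 ± 0.39 (edgeR adjusted p = 0.0224), again with library 3 between the other Il22r-/- libraries and Il22r+/+ cells. Without Il22r-/- library 1 or 2 or Il22r+/+ library 2 its adjusted p was 0.11, 0.0657 and 0.057. Rpl35a had 189, 197 and 71.3 CPM against 58.4, 46.2 and 46.5 CPM (log2 fold change 1.60 ± 0.41, edgeR adjusted p = 0.0261, and 0.123, 0.0867 and 0.0636 without those same libraries). Rpl36a had 217, 248 and 123 CPM against 72.8, 66.7 and 72.5 CPM (1.47 ± 0.25, edgeR adjusted p = 0.00317). Rpl17 and Rpl21, at log2 fold changes of 1.57 ± 0.32 and 1.52 ± 0.46 (edgeR adjusted p = 0.00901 and 0.0435), have pseudogenes with many reads and are taken up again with their copies. Rpl17 lost its call without Il22r-/- library 1 (adjusted p = 0.0601), and Rpl21 without Il22r-/- library 1 or 2 (0.175 and 0.142) or Il22r+/+ library 1 or 2 (0.0517 and 0.0705).

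Rpl12, near the base of the stalk, rose evenly. Rpl12 (ENSMUSG00000038900, chr2:32961559-32965345, plus strand) had 477.5, 478.3 and 442.4 CPM in Il22r-/- libraries against 181.6, 183 and 200.6 CPM in Il22r+/+ libraries. The spread within each group was small beside the gap between them, with a log2 fold change of 1.31 ± 0.08 (edgeR adjusted p = 1.13e-06). Rpl29 had 289, 318 and 293 CPM against 127, 125 and 137 CPM, a log2 fold change of 1.21 ± 0.08 (edgeR adjusted p = 1.42e-06). Rpl12 and Rpl29 were picked out after their values were seen, as were Rpl41 and Rpl7a, named with coding length and with pseudogenes. Rpl10, which takes part in the last step of large-subunit maturation, had 678, 712 and 445 CPM against 304, 298 and 297 CPM (1.03 ± 0.16, edgeR adjusted p = 0.00071). Rpl5 and Rpl11, which with 5S rRNA form the particle that can bind Mdm2, both rose, and no test compared them. Rpl5 had 682, 705 and 535 CPM against 333, 375 and 380 CPM (0.82 ± 0.11, edgeR adjusted p = 0.000207). Rpl11 had 449, 466 and 267 CPM against 275, 258 and 269 CPM (0.56 ± 0.19, edgeR adjusted p = 0.0437), its value in Il22r-/- library 3 falling within the Il22r+/+ range. The call of Rpl11 was lost without any 1 library other than Il22r-/- library 3, at adjusted p from 0.0914 to 0.174.

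The stalk genes Rplp0, Rplp1 and Rplp2, whose proteins recruit elongation factors to the ribosome, had log2 fold changes at or below the median of the ribosomal protein genes, and Rplp0 and Rplp2 rose. Rplp0 (chr5:115559467-115563727, plus strand) had 1601, 1568 and 1432 CPM in Il22r-/- libraries against 988, 1016 and 1062 CPM in Il22r+/+ libraries, a log2 fold change of 0.59 ± 0.09 (edgeR adjusted p = 0.000341). Rplp2, at the median, had 365, 413 and 248 CPM against 206, 194 and 195 CPM (0.79 ± 0.16, edgeR adjusted p = 0.0042). Rplp1 had 970, 1012 and 626 CPM against 646, 648 and 663 CPM. The groups overlapped because library 3 was below every Il22r+/+ library, and Rplp1 was not called (0.41 ± 0.16, edgeR adjusted p = 0.0623). Without Il22r-/- library 3 its log2 fold change was 0.58 (adjusted p = 5.37e-06), and with no filter on low counts it was 0.42 (adjusted p = 6.06e-05).

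By deposited FPKM, a level per kilobase of gene and per mega-read, the highest large-subunit genes over all libraries were Rplp1 (means of 1756 in Il22r-/- and 1344 in Il22r+/+ cells), Rplp0 (932.7 and 633) and Rpl36 (620 and 361). The highest small-subunit genes were Rps15 (690 and 460), Rps2 (504 and 277) and Rps6 (404 and 240). Rps15 and Rps2 rose by 0.61 and 0.89 on the log2 scale in the count test. Rpl36 rose by 0.81 ± 0.20 (edgeR adjusted p = 0.0135), and lost its call without Il22r-/- library 1 (adjusted p = 0.0779). The lowest tested small-subunit genes per length were Rps24, Rps15a and Rps10, at 69.9, 43.9 and 2.38 FPKM over all libraries, although the first 2 had 575 ± 104 and 341 ± 12.0 CPM in Il22r-/- cells against 286 ± 21.9 and 201 ± 6.58 CPM in Il22r+/+ cells (SD, n = 3 each). The deposited lengths count all annotated exons of a gene, so a gene with long rare exons has a low level per length.

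Several ribosomal protein genes have a second copy, here taken by symbol. Rps27 (ENSMUSG00000090733, chr3:90212522-90213651, minus strand) had 261, 164 and 114 CPM in Il22r-/- libraries against 81.1, 77.5 and 93.2 CPM in Il22r+/+ libraries, a log2 fold change of 1.10 ± 0.30 (edgeR adjusted p = 0.0289). Its call was lost without Il22r-/- library 2 (adjusted p = 0.0733) or Il22r+/+ library 1 or 2 (0.0606 and 0.075). Rps27l (ENSMUSG00000036781, chr9:66946086-66949516, plus strand), a copy that p53 can induce, had 128, 141 and 101 CPM against 105, 107 and 110 CPM. The groups overlapped and Rps27l was not called (0.21 ± 0.11, edgeR adjusted p = 0.148), though it was without Il22r-/- library 3 (0.31, adjusted p = 0.00125). Their start regions, printed above, hold C and T runs of 9 letters, and those of Rps27l end before the start. Rpl7l1 had 99.9, 103 and 91.4 CPM against 93.2, 86.5 and 92.7 CPM (0.11 ± 0.07, edgeR adjusted p = 0.255), whereas Rpl7 had 770, 775 and 673 CPM against 431, 454 and 464 CPM (0.72 ± 0.09, edgeR adjusted p = 9.06e-05). No test compared the copies of a pair with each other.

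Rpl22l1, the copy of Rpl22, had 39.6, 44.3 and 19.2 CPM in Il22r-/- libraries against 19.5, 17.7 and 19.0 CPM in Il22r+/+ libraries. Library 3 lay within the Il22r+/+ range, and the call (0.88 ± 0.29, edgeR adjusted p = 0.0425) was lost without any 1 library other than Il22r-/- library 3, at adjusted p from 0.088 to 0.159, and with no filter on low counts (0.133). Rpl22 itself had 279, 283 and 190 CPM against 146, 144 and 154 CPM (0.76 ± 0.14, edgeR adjusted p = 0.00192). The testis and muscle copies Rpl10l, Rpl39l and Rpl3l were at or near 0 reads, while Rpl39 and Rpl10 rose and Rpl3 rose little. Rpl39 had 243, 269 and 251 CPM against 139, 127 and 151 CPM (0.87 ± 0.08, edgeR adjusted p = 2.18e-05). The X-linked Rps4x had 657, 685 and 609 CPM against 341, 368 and 361 CPM (0.87 ± 0.08, edgeR adjusted p = 1.86e-05).

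Of the 79 tested genes, 7 were not called: Rplp1, Rps27l, Rpl7l1, Rps10, Rpl35, Rps27a and Rpl24. Rpl24 (ENSMUSG00000098274, chr16:55966275-55971435, plus strand), the only one with a negative log2 fold change, had 28, 12 and 91 reads in Il22r-/- libraries against 90, 98 and 98 reads in Il22r+/+ libraries. The value was -1.11 ± 0.69 (edgeR adjusted p = 0.238), and without Il22r-/- library 3 it was -2.43 (adjusted p = 3.65e-05). Annotated exons of Gm28037 on the same strand cover 47% of the Rpl24 exon length, so the reads left to Rpl24 depend on how shared reads were counted. Gm28037 itself had 0 reads in every library, so no shared read was counted for it. Rps27a, a fusion of ubiquitin to a small-subunit protein, had 5219, 4522 and 1458 reads against 3511, 1150 and 1148 reads. Here Il22r+/+ library 1 stood above the other Il22r+/+ libraries and Il22r-/- library 3 below the other Il22r-/- libraries, and the log2 fold change was 0.84 ± 0.62 (edgeR adjusted p = 0.321). Rps10 had 7.35, 7.20 and 4.60 CPM against 4.27, 4.48 and 4.62 CPM (0.52 ± 0.21, edgeR adjusted p = 0.067), and RPS10-NUDT3 on the same strand covers 20.6% of its exon length. Rpl35 had 264, 277 and 130 CPM against 122, 126 and 131 CPM (0.83 ± 0.28, edgeR adjusted p = 0.0521), its library 3 lying within the Il22r+/+ range. For Rpl35 the exons of Wdr38 and Arpc5l on the other strand cover 66.2%, and the strand setting of the counting is not given in the sources used here.

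Processed pseudogenes can hold reads that come from their parent gene. Pseudogenes named after 62 of the 82 genes were in the table, 309 in all, of which 177 had a read in at least 1 library. Pseudogenes together held 0.213 ± 0.0118% of the reads in Il22r-/- cells and 0.119 ± 0.00629% in Il22r+/+ cells (SD, n = 3 each), far less than the genes themselves. For 7 genes the pseudogene reads exceeded 20% of the parent's: Rps10, Rpl17, Rpl21, Rps12, Rpl3, Rpl14 and Rpl7a. In Rps10, Rpl17 and Rpl21 they exceeded the parent's own reads, at 1923%, 240% and 109% of them. Values printed for these genes alone therefore leave out most of the reads under their names. With its copies Rpl17 averaged 495 ± 37.4 CPM in Il22r-/- cells and 330 ± 17.0 CPM in Il22r+/+ cells (SD, n = 3 each), a smaller ratio than the 2.96-fold of the gene alone. Rpl21 with its copies was 2.01-fold higher, against 2.86-fold alone. Rpl7a with its copies was 2.25-fold higher, against 2.55-fold alone, and Rps12, Rpl14 and Rps10 were 1.54-fold, 1.82-fold and 1.65-fold higher, against 1.62-fold, 1.73-fold and 1.43-fold alone. Rps27 together with Rps27rt, a retrogene copy, was 2.66-fold higher, with 354, 403 and 246 CPM in Il22r-/- libraries against 124, 112 and 142 CPM in Il22r+/+ libraries. These sums were formed after the values were seen and were not tested.

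Rpl3, which lies close to the site of peptide bond formation, rose little, while a copy of it rose strongly. Rpl3 (chr15:80077791-80091868, minus strand) had 685, 598 and 497 CPM in Il22r-/- libraries against 467, 477 and 490 CPM in Il22r+/+ libraries, a log2 fold change of 0.31 ± 0.11 (edgeR adjusted p = 0.0419). Rpl3-ps1 had 268, 331 and 261 CPM against 44.8, 51.1 and 51.3 CPM, a log2 fold change of 2.55 ± 0.11 or 5.85-fold (edgeR adjusted p = 1.15e-07), and Rpl3-ps2 was 14.5-fold higher at a far lower level. Summed with both copies, Rpl3 had 960, 937 and 763 CPM against 512, 529 and 542 CPM, or 1.68-fold, close to the median of the 79 genes. Rpl23a had 331, 349 and 288 CPM against 259, 259 and 291 CPM (0.26 ± 0.09, edgeR adjusted p = 0.0418), and exons of Tlcd1 on the other strand cover 59.7% of its length. Rpl3 and Rpl23a lost their calls when any 1 library other than Il22r-/- library 3 was left out, with adjusted p from 0.0964 to 0.147 for Rpl3 and from 0.0526 to 0.175 for Rpl23a.

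Short coding sequences had larger changes in Il22r-/- libraries 1 and 2. The 10 tested genes with a coding length of 300 nt or less had a median log2 fold change of 1.27, the 39 with more than 300 and up to 500 nt 0.76, and the 30 with more than 500 nt 0.72. By library, the shortest class stood 1.47 above the Il22r+/+ mean in Il22r-/- library 1, slightly more in library 2, and 0.59 in library 3. In the same order the middle class stood at 0.92, 0.95 and 0.40, and the longest class at 0.82, 0.86 and 0.51. Thus the classes were ordered by length in libraries 1 and 2. In library 3 the shortest class was also the highest, by less, and the middle class was the lowest. Over the 79 genes, which share libraries and depth, the correlation of log2 coding length with the log2 difference was r = -0.36 in library 1, -0.31 in library 2 and 0.0064 in library 3 (Spearman rho -0.34, -0.34 and 0.07). Rpl41, the shortest of these proteins, had 731, 847 and 441 CPM in Il22r-/- libraries against 284, 257 and 287 CPM in Il22r+/+ libraries (1.29 ± 0.22, edgeR adjusted p = 0.00232). Other nuclear protein-coding genes of at least 100 CPM showed a smaller step: 30 genes of 300 nt or less had medians of 0.10, 0.16 and -0.12 in the 3 Il22r-/- libraries, and 2137 genes over 500 nt had -0.15, -0.14 and -0.06. The mean of libraries 1 and 2 over library 3 had a median of 1.80 in the shortest ribosomal protein genes and 1.24 in the shortest other genes, against 1.22 and 0.934 in the longest classes. The length classes were set after the values were seen, and the part of transcript length, RNA quality or library preparation in the result was not tested.

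**Figure D4:**
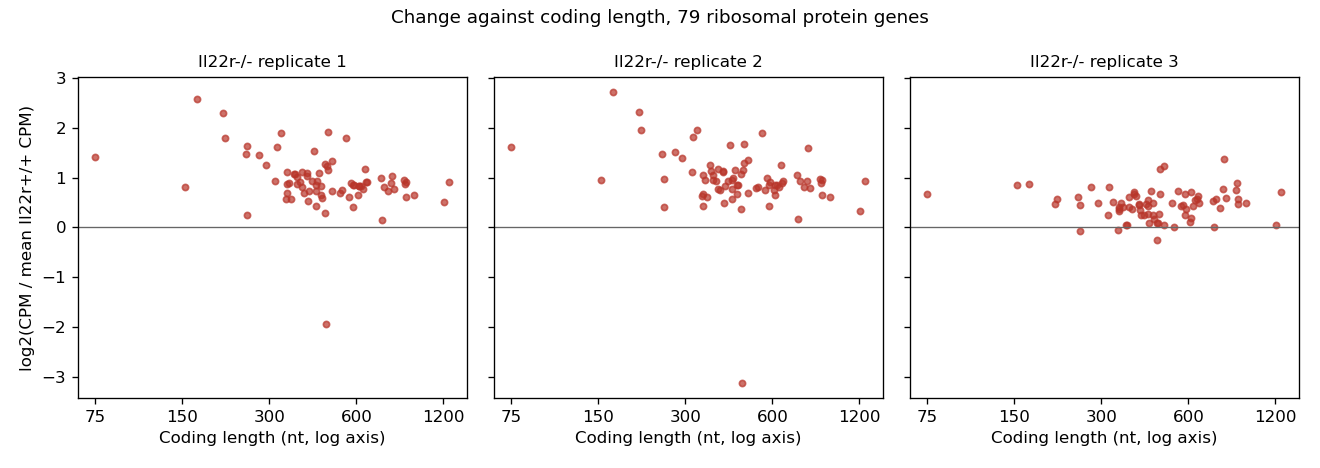
Log2 ratio of CPM to the Il22r+/+ mean against coding length (nt, log axis) for 79 ribosomal protein genes, 1 panel for each Il22r-/- library. Short genes reach higher values in libraries 1 and 2 (r of -0.36 and -0.31), and in library 3 r is 0.0064.

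Because ribosomal protein mRNAs are abundant, the scaling of the libraries was varied. Under TMM factors, 72 genes were higher and 0 lower, with medians of 0.79 for these genes and 0.03 for all tested genes. Scaling by library size alone moved all genes by about the same amount: 77 were higher (30.2% of all tested genes) and 0 lower, with medians of 0.89 and 0.13, and the share of all calls that were higher was 63.6%, against 51.6% under TMM. DESeq2 size factors gave 72 higher with medians of 0.77 and 0.01, where 3453 of all 15227 tested genes were higher. Upper-quartile factors gave 74 higher with medians of 0.82 and 0.06, where 3866 of all tested genes were higher. TMM factors computed without the ribosomal protein genes, or without these and the mitochondrially encoded genes, gave 72 higher and 0 lower with medians of 0.79 and 0.03. In both cases 3615 of all tested genes were higher. The gap between both medians was 0.76 under each of these scalings. A scale factor moves every gene by about the same amount, so this gap could hardly change and does not test the scaling.

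Scaling to the summed reads of the 82 genes asks which of them moved differently from the rest, and puts their median at 0.0043 by construction and that of all tested genes at -0.73. On that scale 14 ribosomal protein genes were called higher and 4 lower by the edgeR test, where 4.85% of all tested genes were higher and 66.2% lower. Those above the others were Rps29 (1.42), Rps28 (1.06), Rpl35a (0.77), Rpl17 (0.75), Rpl38 (0.74), Rpl21 (0.71), Rpl36a (0.67), Rpl7a (0.61), Rpl12 (0.55), Rpl37a (0.50), Rps23 (0.49), Rpl41 (0.48), Rps21 (0.45) and Rpl29 (0.45). Those below were Rpl7l1 (-0.65), Rps27l (-0.57), Rpl23a (-0.51) and Rpl3 (-0.46), with edgeR adjusted p of 0.00228, 0.00422, 0.0117 and 0.0206. Rpl3 and Rpl23a were thus called higher under TMM and lower against the ribosomal protein total. Rpl7l1 and Rps27l were likewise called lower against that total, and higher with library size alone (0.21 and 0.31, edgeR adjusted p = 0.041 and 0.0456).

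**Figure D5:**
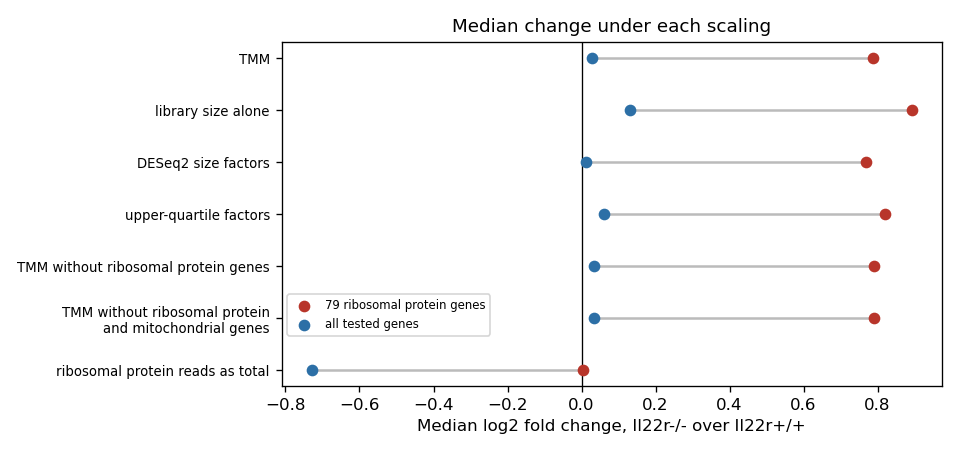
Median log2 fold change (Il22r-/- over Il22r+/+) of the 79 ribosomal protein genes and of all tested genes under 7 scalings. The gap between both medians stays near 0.76 under 6 scalings and is 0.73 when libraries are scaled to the summed ribosomal protein reads, which places the ribosomal protein median at 0.0043. Scale factors move every gene by about the same amount, so the gap could hardly change.

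Some ribosomal proteins have symbols outside the rule. Of 6 such genes tested, 4 were higher and 0 lower by the edgeR test, with a median of 0.40 (0 were lower also at an unadjusted p under 0.05). Among all tested genes, 23.6% were higher and 22.1% lower. Fau, a fusion of a ubiquitin-like sequence to a small-subunit protein, had 325.5, 343.5 and 304.2 CPM in Il22r-/- libraries against 231.6, 209.7 and 229 CPM in Il22r+/+ libraries (0.54 ± 0.08, edgeR adjusted p = 0.00039). Rps27rt (1.88) and Rack1, a scaffold on the small subunit (0.26), were also called, with edgeR adjusted p of 0.0126 and 0.0285. Rps3a1 had 254.6, 419.2 and 355.5 CPM against 410.9, 434.7 and 461.9 CPM and was not called (-0.35 ± 0.16, edgeR adjusted p = 0.109), nor was Rpl36al (-0.02, adjusted p = 0.98). Without 1 library at a time the number called in this list was 2 or 3. Pseudogenes named after a ribosomal protein gene were higher for 32 (36.0%) and lower for 6 of 89 tested, with a median of 0.38.

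Genes for building ribosomes rose as well: of 46 ribosome biogenesis and RNA polymerase I genes, 40 were higher and 1 lower, with a median of 0.56. The share higher was 87.0%, against 23.6% of all tested genes. Npm1, the nucleolar chaperone nucleophosmin, had 510.1, 509.4 and 383 CPM in Il22r-/- libraries against 193.2, 218.9 and 219.3 CPM in Il22r+/+ libraries (1.15 ± 0.12, edgeR adjusted p = 2.94e-05). Dkc1, the pseudouridine synthase of box H/ACA particles, had 53.3, 55.1 and 44.1 CPM against 20.9, 21.5 and 20.4 CPM (1.28 ± 0.10, edgeR adjusted p = 5.71e-06). Nop58, a core protein of box C/D particles, rose by 1.18 ± 0.08 (edgeR adjusted p = 2.19e-06), and Gar1, a partner of Dkc1, by 1.20 ± 0.35 (edgeR adjusted p = 0.0313). Rrn3, which brings RNA polymerase I to the rRNA promoter, was the one called lower, with 79.7, 84.2 and 97.9 CPM against 107.1, 100.8 and 104.6 CPM (-0.26 ± 0.09, edgeR adjusted p = 0.032). Under library size alone Rrn3 was not called, and 0 genes of the list were lower. The list also had 0 lower without any 1 library other than Il22r-/- library 3, and 2 lower without that library.

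Translation factors and other mRNAs with a terminal oligopyrimidine start were higher for 27 and lower for 0 of 33 by the edgeR test, with a median of 0.44 (0 were lower also at an unadjusted p under 0.05). The share higher was 81.8%, where 23.6% of all tested genes were higher and 22.1% lower. Hnrnpa1, an RNA-binding protein, had 650.6, 686.8 and 342.1 CPM in Il22r-/- libraries against 232.6, 246 and 227.2 CPM in Il22r+/+ libraries (1.25 ± 0.25, edgeR adjusted p = 0.00644), with library 3 again the lowest of its group. Pabpc4, a poly(A)-binding protein, rose by 0.97 ± 0.09, Eif3e, a subunit of the initiation factor eIF3, by 0.78 ± 0.07 and Nap1l1, a histone chaperone, by 0.75 ± 0.07 (edgeR adjusted p = 1.57e-05, 7.75e-06 and 1.67e-05). Genes of the mTORC1 and LARP1 pathway were higher for 6 and lower for 6 of 23 tested, with a median of 0.03. The share higher, 26.1%, was near that of all tested genes, so the counts do not set this list apart. Deptor, an inhibitor of mTOR, rose by 1.18 ± 0.08 (edgeR adjusted p = 2.5e-06), with 219.2, 206.8 and 210.2 CPM against 95.7, 101.3 and 84.5 CPM. Eif4ebp2, a repressor of cap-dependent initiation, rose by 0.86 ± 0.08 (edgeR adjusted p = 1.4e-05). Castor1, the arginine sensor, and Ddit4, a stress-induced inhibitor of mTORC1, had log2 fold changes of -1.17 ± 0.18 and -0.69 ± 0.15 (edgeR adjusted p = 0.000375 and 0.00374). Mtor and Larp1 were not called, at 0.06 and 0.03 (edgeR adjusted p = 0.626 and 0.733).

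Nuclear genes of the mitochondrial ribosome had a median of 0.26, with 30 higher and 1 lower of 76 tested. The share higher was 39.5%, where 23.6% of all tested genes were higher and 22.1% lower. The largest called values were those of Mrpl42 (0.70 ± 0.11), Mrpl50 (0.62 ± 0.17), Mrpl46 (0.58 ± 0.15) and Mrps27 (0.58 ± 0.10), with edgeR adjusted p of 0.000434, 0.0135, 0.00903 and 0.00109, and Mrps34 was lower at -0.38. Without Il22r-/- library 3 the number higher was 52, where 26.3% of all tested genes were higher. Without any 1 other library it lay between 21 and 25, where 17.5% to 19.8% of all tested genes were higher. No test compared these lists with the cytosolic ribosomal protein genes or with each other.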

How the data were processed

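RNA from 3 Il22r-/- and 3 Il22r+/+ granulosa cell libraries was analysed, grouped by the genotype in the labels. The authors deposited whole-number read counts for 55860 genes; reads were assigned to genes with featureCounts 1.5.0-p3 on mm10, per the submitters' processing notes. No source used here names the aligner, read length or strand setting. The authors also deposited FPKM values, which were used for levels per length and as an alternative. They followed from the same counts with other library totals. These totals were 1.05, 1.03 and 1.00 times the count totals in Il22r-/- libraries 1 to 3. In Il22r+/+ libraries 1 to 3 they were 0.939, 0.938 and 0.936 times the count totals. Ratios of Il22r-/- to Il22r+/+ are therefore lower by FPKM than by library size alone. The deposited gene lengths (a further column, in nt) were used as given.

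Genes passing filterByExpr (15227) were scaled by TMM and fitted with edgeR 4.0.16 (R 4.3.3), using the robust quasi-likelihood fit, genotype being the only term, with Benjamini-Hochberg adjustment over all tested genes and calls at 0.05. Log2 fold changes are Il22r-/- minus Il22r+/+. Alternatives used other scalings, DESeq2 1.42.0, limma 3.58.1 (voom, or log2(FPKM + 1) and log2(FPKM + 0.1)), other filters, a replicate block and each library left out. On simulated data for these libraries with 14973 genes, 60.6% of 1.5-fold, 88.1% of 2-fold and 100% of 4-fold changes were recovered, with 6 false calls. The simulation gave every gene the same dispersion, 0.0139, and set no library apart from its group. These rates can therefore be too high for genes that vary more between libraries. No 2 libraries agreed within sampling noise. Promoter windows came from RefSeq, and coding lengths and exon overlaps from GENCODE M21 on mm10.

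The ribosomal protein genes, related lists, marker lists and tests were chosen with earlier results of these data known. Genes named were second copies and their parents, the 5 highest and 5 lowest log2 fold changes and the 3 highest and lowest FPKM of each subunit, stalk genes, Rpsa, Rpl5, Rpl11, Rps6 and Rps19, genes called in opposite directions by 2 scalings, and up to 4 called genes per related list. Others are said to have been picked after their values were seen, or are named because the test did not call them or a count names them. One gene that the rule names is not reported here.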

Additional observations from a re-analysis of the deposited data

How the results depend on the processing

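Of 760 values, those of 38 named genes under 20 alternatives, 652 kept their direction and side of the threshold, 80 lost the call, 12 gained one and 16 changed sign. All 16 changes of sign came from scaling to the summed ribosomal protein reads, which sets the median of these genes near 0 by its construction: Rpl7l1 -0.65, Rps27l -0.57, Rpl23a -0.51, Rpl3 -0.46, Rplp1 -0.38, Rps10 -0.27, Rpl11 -0.24, Rps20 -0.23, Rps7 -0.23, Rps18 -0.22, Rplp0 -0.17, Rps15 -0.17, Rpl7 -0.0467, Rpl22 -0.0249, Rps19 -0.0222 and Rplp2 -0.0059. That scaling called 14 ribosomal protein genes higher, 4 lower and 10822 of all genes, with a median of 0.0043. Limma-voom called 1 lower (Rpl24, -1.74, adjusted p = 0.0236), and library size alone called 0 ribosome biogenesis genes lower. The cause of these last changes was not tested. The other alternatives for the whole set called between 62 (no filter on low counts, 11 calls lost, among them those of the 6 largest rises) and 77 (library size alone) higher, with 66 for limma on log2(FPKM + 1) or log2(FPKM + 0.1), 74 for DESeq2 and 72 for limma-voom. Of all genes, in either direction, no filter called 7476 and library size alone 7225. Limma on FPKM called 6594 and 6600, DESeq2 6667 and limma-voom 6958.

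Same-numbered libraries did not deviate together (r of 0.026, -0.041 and -0.028), so the numbers were not taken to pair them. With a replicate block, 67 ribosomal protein genes were called higher (Rps28, Rpl38, Rpl21, Rpl3 and Rpl23a lost), 1 other ribosomal protein lower and 2 mitochondrial ribosomal proteins lower. Of all genes, that fit called 6405 in either direction.

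Leaving out each library in turn, which tests 3 libraries against 2, gave 56 to 76 ribosomal protein genes higher and 0 to 1 lower, 5411 to 8243 genes called in all, medians from 0.67 to 0.89 and ratios of read shares from 1.75 to 2.02 (large subunit 1.72 to 1.99, small subunit 1.79 to 2.07). Over these fits, 17.5% to 26.3% of all tested genes were called higher. Related lists gave 34 to 42 biogenesis genes higher and 0 to 2 lower, 23 to 27 translation factors higher and 0 to 2 lower, 2 to 3 other ribosomal proteins higher and 0 to 1 lower, 21 to 52 mitochondrial ribosomal proteins higher and 1 to 3 lower, 3 to 6 mTORC1 genes higher and 5 to 8 lower, and 26 to 35 pseudogenes higher and 4 to 15 lower. Few reads limit Rpl24, Rps10, Rpl3l, Rpl39l and Rpl10l, and those of Rpl24 depend also on how reads shared with Gm28037 were counted. With 3 libraries a group changes near 1.5-fold can be missed, and larger ones in genes that vary between libraries. Rpl35 varied between the Il22r-/- libraries and was not called at 1.77-fold, and these data do not settle whether it changed.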
